A study of Mus musculus with 54 samples.

Results

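Normal intestinal mucosa of C5 mice was compared with that of C5F1 mice, both with the Min allele of Apc, to ask how captured DNA methylation follows the number of PWD/Ph (PWD) copies of chromosome 5. The comparison used 6 of the 54 samples of the series, 3 per strain, chosen by strain, genotype and tissue in the labels and not by any measured value. C5 is labelled CSS C57BL/6 chr5 PWD, where CSS stands for a chromosome substitution (consomic) strain: per the series design text, chromosome 5 comes from PWD/Ph and the other chromosomes from C57BL/6 (B6). C5F1 is labelled as the F1 of C57BL/6 and that consomic strain. C5 then carries 2 PWD copies of chromosome 5, and C5F1 carries 1 PWD and 1 B6 copy. All 6 samples are labelled genotype APC min, normal intestinal mucosa, age 15 to 19 weeks, with an antibody against 5-methylcytosine. The libraries were C5 12_2, 12_4 and 16_2 and C5F1 12_7, 12_8 and 16_10, in the labels' sample numbers. The first number, 12 or 16, is shared by both strains in the same proportion (2 libraries of 12 and 1 of 16 each) and was used as a block; the labels do not say what it marks, nor name animals or sex. Wild type mucosa of PWD (3 libraries) and B6 (4 libraries), and Apc Min normal mucosa of the B6xPWD cross (3) and B6 (3), served as levels to read the comparison against.

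The Min allele is a truncating mutation of Apc, a negative regulator of Wnt signalling, and mice that carry it develop intestinal adenomas. Strain background changes how many adenomas form, and consomic strains place such modifiers on single chromosomes. In methylated DNA immunoprecipitation (MeDIP), an antibody against 5-methylcytosine captures fragments of single-stranded DNA, and sequenced fragments are counted along the genome. The yield rises with the density of methylated CpG dinucleotides, so a window with few CpG sites gives few counts even when all of them are methylated. Methylation at many sites follows the DNA sequence in cis: in an F1 animal each parental copy keeps its own state, and the captured amount lies between those of the parents.

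Total counts were 24158323, 20063745 and 20342005 in the C5 libraries and 22738788, 23410919 and 19979875 in the C5F1 libraries. Counts came in windows of 250 bp on mm10, and a median of 14 counts per library lay behind a window that was tested. Values are given as CPM, counts scaled for the size of the library, and they measure captured and mapped DNA. Where PWD sequence is deleted or diverged from the B6 assembly they fall as well, and the part of this in the differences was not tested. In bulk mucosa, a change of methylation within cells cannot be told apart from a change in the mix of cells. The share of autosomal counts in CpG-dense windows (deposited CpG density score of 10 or more) was 6.69%, 6.67% and 4.06% in C5 12_2, 12_4 and 16_2, and 5.77%, 6.26% and 4.53% in C5F1 12_7, 12_8 and 16_10. It separated the label numbers more than the strains: the strain difference was 0.284 percentage points (exact permutation test, two-sided, p = 0.8; 3 against 3 libraries cannot go below 0.1), 0.665 within number 12 and -0.477 within number 16.

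The dose of PWD chromosome 5 was visible in every library. Each library was placed on a scale between B6 wild type mucosa (0%) and PWD wild type mucosa (100%), using windows that differed at least 2-fold between those parents, which are not part of the comparison. On chromosome 5 the C5 libraries 12_2, 12_4 and 16_2 lay at 84.9%, 88.2% and 82.6%, and the C5F1 libraries 12_7, 12_8 and 16_10 at 48.1%, 50.95% and 45.8%. The strains did not overlap. In this mean of windows higher and lower in PWD, C5F1 lay near the B6xPWD cross (49.97% ± 2.79, SD, n = 3). B6 Apc Min mucosa was at 5.69% ± 3.75 (SD, n = 3). Over windows higher in PWD alone, C5F1 averaged 40.3% and the cross 47.8%, and their libraries did not overlap. Over windows lower in PWD alone, C5F1 averaged 56.2% and the cross 52.1%. With both sets, the strain means were 85.3% ± 2.81 in C5 and 48.3% ± 2.57 in C5F1 (SD, n = 3 each). The difference was 36.96 percentage points (exact permutation test, two-sided, p = 0.1, the smallest that 3 against 3 libraries can give). It was 37.0 points within number 12 and 36.8 within number 16.

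**Figure D1:**
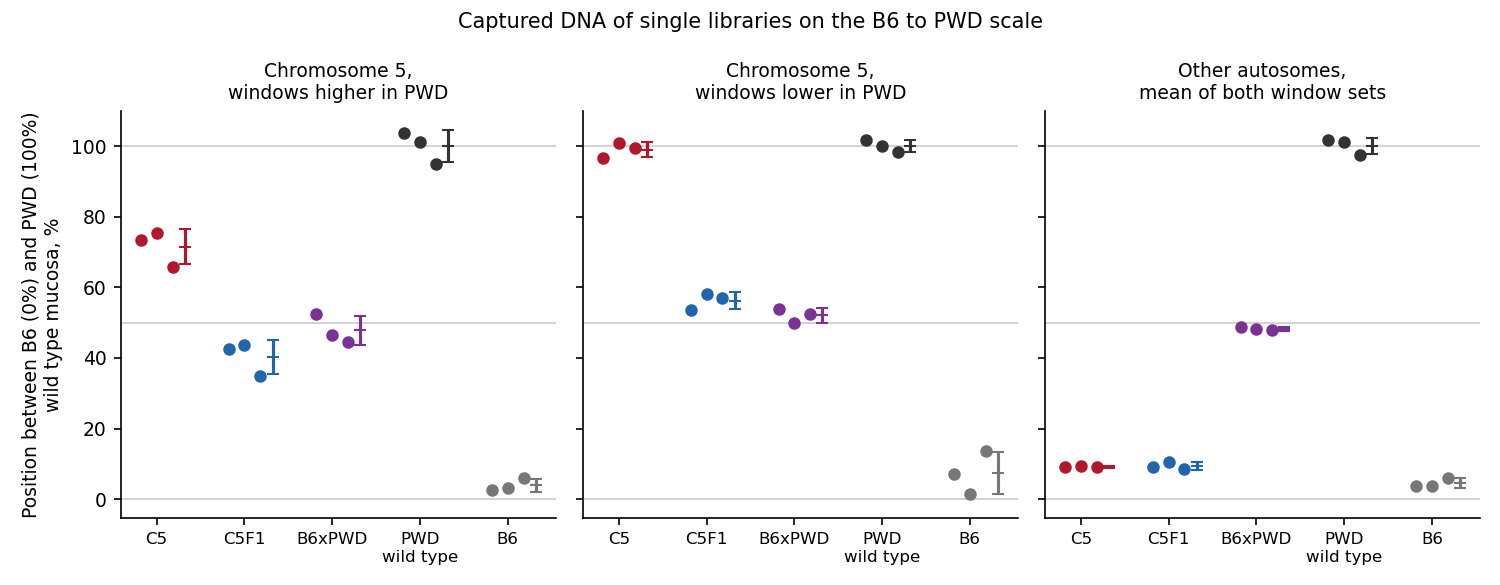
Position of single libraries between B6 wild type mucosa (0%) and PWD wild type mucosa (100%), in percent, for windows of chromosome 5 higher in PWD, windows lower in PWD, and the mean of both sets on the other autosomes. Points are libraries and bars are the mean with the SD of 3 libraries per group; on chromosome 5 all C5 libraries lie above all C5F1 libraries in both sets, and on the other autosomes both strains lie near 9%.

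C5 lay below the PWD wild type level in windows that PWD captures more. The PWD libraries that set 100% also helped to choose these windows, which can raise their level there. The part of this choice in the gap was not tested. Over windows higher in PWD, C5 12_2, 12_4 and 16_2 lay at 73.3%, 75.5% and 65.9%, and C5F1 12_7, 12_8 and 16_10 at 42.5%, 43.7% and 34.8%. Over windows lower in PWD, the C5 libraries lay at 96.6%, 101% and 99.4%, and the C5F1 libraries at 53.6%, 58.2% and 56.9%. In both sets the library of number 16 did not leave its strain, although it was the lowest of each strain over windows higher in PWD. By CpG density, C5 averaged over windows higher in PWD 79.5%, 74.4%, 70.1%, 60.2% and 53.6% from the sparsest class (score under 3) to the densest (12 or more), and C5F1 47.5%, 41.9%, 38.6%, 33.3% and 26.3%. Over windows lower in PWD the class means were 94.7% to 101% in C5 and 51.6% to 59.8% in C5F1. B6xPWD mucosa, which shares no library with either strain, stayed at 46.03% to 49.9% over the windows higher in PWD. The libraries of number 16 lowered the means of the dense classes. In the densest class (88 windows) C5 16_2 was at 21.3%, against 70.4% and 69.2% in C5 12_2 and 12_4. There C5F1 16_10 was at 12.7%, against 29.6% and 36.5% in C5F1 12_7 and 12_8. Without C5 16_2 the C5 means of the 5 classes were 77.7%, 73.6%, 74.5%, 71.4% and 69.8%, and without C5F1 16_10 those of C5F1 were 48.2%, 43.1%, 42.3%, 39.6% and 33.1%. The difference between the sparsest and the densest class was thus much smaller in C5 without C5 16_2. In C5F1 most of it remained without C5F1 16_10.

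The position along the chromosome made little difference. In 16 bins of 10 Mb, the C5 means lay between 81.1% and 88.6% and the C5F1 means between 44.7% and 51.3%, both lowest at 110 to 120 Mb. The lowest single C5 library in any bin was at 76.2%, above the highest single C5F1 library in any bin, at 53.9%. B6 Apc Min mucosa averaged 3.48% to 7.54% over the same bins (single libraries -2.62% to 13.3%). No bin of chromosome 5 was near the B6 level in either strain.

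Windows that only 1 parent captures were summed separately; the PWD wild type values given for them helped to choose them. Over 194 chromosome 5 windows that PWD wild type mucosa captured and B6 wild type mucosa held at 0.05 CPM or less, the summed level was 109.5, 115 and 119 CPM in C5 12_2, 12_4 and 16_2, and 69.7, 62.2 and 65.8 CPM in C5F1 12_7, 12_8 and 16_10. C5F1 thus held 57.5% of the C5 level, with 166 CPM in PWD wild type and 8.30 CPM in B6 Apc Min mucosa. Over 189 windows of the opposite kind, captured in B6 and at 0.05 CPM or less in PWD, the sums were 13.5, 6.82 and 7.86 CPM in the C5 libraries and 59.4, 55.2 and 60.7 CPM in the C5F1 libraries, with 4.23 CPM in PWD wild type and 115 CPM in B6 Apc Min mucosa. The strains did not overlap in either set (exact permutation test, two-sided, p = 0.1 for each, the smallest possible). At the windows captured in B6, C5 was close to PWD, and C5F1 lay about midway between C5 and B6.

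On the same scale over the other autosomes, the strains differed by less than the spread between libraries. C5 lay at 9.23% ± 0.248 and C5F1 at 9.38% ± 1.10 (SD, n = 3 each), a difference of -0.151 points (exact permutation test, two-sided, p = 0.9), with B6 Apc Min mucosa at 4.61%. Per chromosome, C5 means ran from 8.35% to 10.9% and C5F1 means from 8.89% to 10.4%. The whole of chromosome 5 held 5.13%, 5.14% and 4.95% of the autosomal counts in C5 12_2, 12_4 and 16_2 and 5.23%, 5.22% and 4.98% in C5F1 12_7, 12_8 and 16_10 (difference -0.0693 points, exact permutation test, two-sided, p = 0.5). The share of counts on chromosome 5 was 0.0636 points higher in C5 when read over windows that passed the filter alone. Over all windows it was also lower in C5 over all 18 libraries of the 2 strains, permuted within tissue and label number (difference -0.0571 points, exact permutation test, two-sided, p = 0.0336). In the wild type and adenoma libraries of the same strains, the position on chromosome 5 was 89.2% and 85.9% in C5 and 47.3% and 49.5% in C5F1. Over the same 18 libraries the difference was 38.4 points (exact permutation test, two-sided, p = 0.00116, the smallest of 1728 arrangements). Both tests over 18 libraries take the samples as independent. Adenomas and normal mucosa may come from the same mice, and the p-values would then be too small.

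Single windows were tested with edgeR's quasi-likelihood test in the 6 libraries, with the label number as a block, and p-values were adjusted by Benjamini-Hochberg over all 455257 autosomal windows tested. Of these, 167 passed an adjusted p of 0.05 (0.0367%). On chromosome 5, 78 of 24786 windows passed (0.315%), 18 higher in C5 (0.0726%) and 60 lower (0.242%). On the other autosomes 89 of 430471 passed (0.0207%), 87 higher (0.0202%) and 2 lower (0.000465%). These counts depend on the block and on single libraries: without the block edgeR called 0 in both regions (1576 and 6818 at an unadjusted p under 0.05), and DESeq2 with the block called 0 in both (645 and 1346). Leaving out a number 12 library left 17 (C5 12_2), 17 (C5 12_4), 21 (C5F1 12_7) or 7 (C5F1 12_8) windows on chromosome 5. An unadjusted p under 0.05 was found in 12.7% of the windows of chromosome 5 and in 5.19% elsewhere. The 3 C5 libraries did not overlap the 3 C5F1 libraries in 2997 windows of chromosome 5 (12.1%), against 6.6% of all autosomal windows.

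The direction on chromosome 5 followed the parents. Windows were classed by PWD against B6 wild type mucosa, in libraries outside the comparison, where 22.8% of the windows of chromosome 5 and 22.5% of the others were called. The filter on low counts ran on the 6 libraries compared, so a window could enter through the strain where it was higher. On chromosome 5 it kept 781 of 3013 windows lower in PWD and 2524 of 3560 higher in PWD. The sizes of the medians and the numbers called are therefore not comparable between these classes. Of 781 tested windows lower in PWD, 2.95% were higher in C5 than in C5F1 and the rest lower. Their median log2 difference was -0.78 (quartiles -1.14 and -0.49), and 54 were called, all lower. Of 2524 windows higher in PWD, 89.8% were higher in C5, with a median of 0.44, and 17 were called, all higher. Of 18793 windows with no difference called between the parents, the median was -0.01 and 3 were called. The same parental classes on the other autosomes had medians of -0.01 (lower in PWD) and 0.02 (higher in PWD). Of the 18 windows called higher in C5, 17 were higher in PWD, and of the 60 called lower, 54 were lower in PWD.

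**Figure D2:**
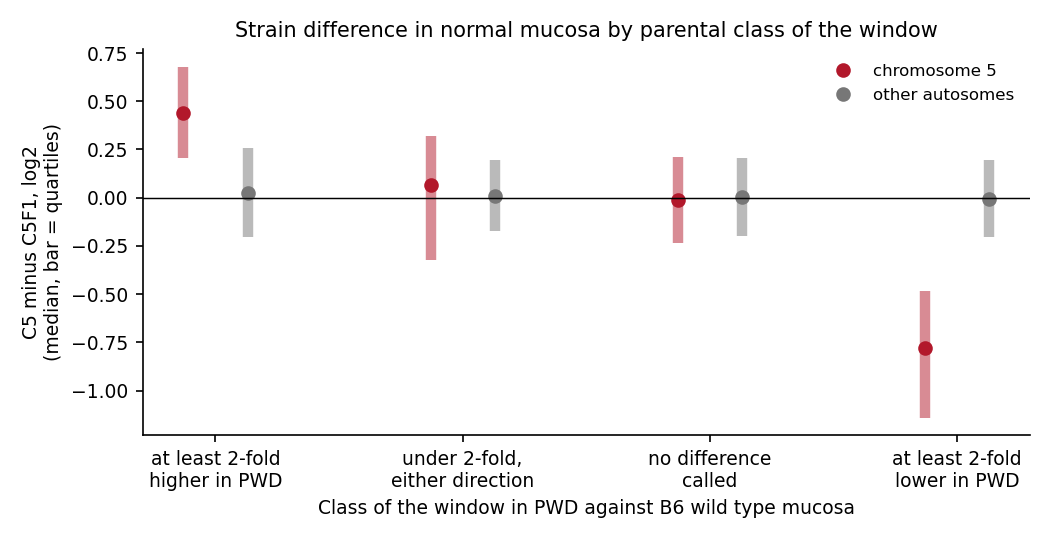
C5 minus C5F1 log2 difference of captured DNA in normal mucosa, by the class of the window in PWD against B6 wild type mucosa. Windows are those that passed the filter on low counts in the 6 libraries compared. Points are medians over windows and bars run from the lower to the upper quartile; on chromosome 5 (red) the medians are 0.44 for windows higher in PWD and -0.78 for windows lower in PWD, and on the other autosomes (grey) the medians of all classes lie near 0.

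C5F1 lay between C5 and B6 at most of the called windows of chromosome 5. Its mean was between those of C5 and of B6 Apc Min mucosa at 56 of the 60 windows lower in C5 and at 16 of the 18 higher ones. At the 60 lower windows the median level was 0.264 CPM in C5, 0.967 CPM in C5F1, 0.344 CPM in PWD wild type mucosa and 1.51 CPM in B6. At the 18 higher windows it was 1.57 CPM in C5, 0.673 CPM in C5F1, 1.73 CPM in PWD and 0.266 CPM in B6. The C5 and C5F1 levels entered the choice of these windows and are given as a description; the B6 and PWD levels did not. The windows were spread from 3.1 to 150.1 Mb, 36 between genes, 34 within genes and 8 within 1000 bp of a start site, and only 1 group of more than 2 neighbours formed, at Mvk and Mmab.

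The sequences below are promoters at which a window or gene end was called, shown because the captured signal depends on the CpG sites in them. Each runs from 250 bases before to 50 bases after the start site, 5′ to 3′, from RefSeq on GRCm38.p6 (the build of mm10), and is the B6 reference; capitals mark CG dinucleotides. The first is a promoter on chromosome 5 where C5 was higher, the next 3 are where C5 was lower, and the last lies on chromosome 7.
Mvk promoter, chr5:114444019-114444318, plus strand: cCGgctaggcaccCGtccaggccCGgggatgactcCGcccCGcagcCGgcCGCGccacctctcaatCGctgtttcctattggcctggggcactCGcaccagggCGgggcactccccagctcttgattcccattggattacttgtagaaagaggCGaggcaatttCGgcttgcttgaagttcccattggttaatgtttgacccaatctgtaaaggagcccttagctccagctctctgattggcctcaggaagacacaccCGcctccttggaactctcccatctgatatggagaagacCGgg
Thegl promoter, chr5:77015773-77016072, plus strand: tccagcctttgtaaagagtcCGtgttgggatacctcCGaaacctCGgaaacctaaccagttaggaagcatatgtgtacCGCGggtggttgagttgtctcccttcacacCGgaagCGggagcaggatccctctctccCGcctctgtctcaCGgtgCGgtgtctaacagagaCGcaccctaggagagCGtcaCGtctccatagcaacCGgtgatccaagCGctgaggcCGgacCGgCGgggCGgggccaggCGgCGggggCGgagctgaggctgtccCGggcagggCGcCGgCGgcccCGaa
Rnf212 promoter, chr5:108774978-108775277, minus strand: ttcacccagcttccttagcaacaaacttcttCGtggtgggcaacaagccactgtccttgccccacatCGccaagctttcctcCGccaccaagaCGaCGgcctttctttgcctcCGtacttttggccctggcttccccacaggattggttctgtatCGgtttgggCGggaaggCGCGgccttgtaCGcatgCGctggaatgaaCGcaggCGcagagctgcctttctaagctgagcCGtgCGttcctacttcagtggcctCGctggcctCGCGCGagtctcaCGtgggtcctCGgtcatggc
Tlr6 promoter, chr5:64959999-64960298, minus strand: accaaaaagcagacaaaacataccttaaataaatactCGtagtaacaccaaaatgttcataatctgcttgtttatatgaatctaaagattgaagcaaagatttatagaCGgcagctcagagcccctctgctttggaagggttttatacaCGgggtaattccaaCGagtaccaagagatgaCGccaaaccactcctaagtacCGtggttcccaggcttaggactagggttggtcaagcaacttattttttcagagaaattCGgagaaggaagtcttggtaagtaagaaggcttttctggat
2310057M21Rik promoter, chr7:131362677-131362976, minus strand: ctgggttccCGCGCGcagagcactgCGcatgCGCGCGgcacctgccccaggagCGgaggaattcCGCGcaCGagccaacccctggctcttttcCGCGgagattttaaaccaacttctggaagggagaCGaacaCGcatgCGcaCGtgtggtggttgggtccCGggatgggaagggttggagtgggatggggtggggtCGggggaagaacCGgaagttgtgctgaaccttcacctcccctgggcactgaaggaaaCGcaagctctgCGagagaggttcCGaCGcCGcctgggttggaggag
They hold 15 CG sites (Mvk), 27 (Thegl), 22 (Rnf212), 7 (Tlr6) and 25 (2310057M21Rik). The motif searched was CG, which reads the same on both strands, and the median over 31396 autosomal promoters of the same length is 7, with 9 on chromosome 5. At least 15 sites are found in 35.2% of all promoters, 22 in 23.7%, 25 in 18.9% and 27 in 16.0%. The Mmab promoter lies on the opposite strand over 259 of the same bases as that of Mvk and is not printed.

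Mvk and Mmab start 242 bp apart on opposite strands and share their promoter; Mvk encodes mevalonate kinase of the sterol and isoprenoid pathway, and Mmab the enzyme that makes adenosylcobalamin for mitochondrial propionate breakdown. At the 5′ gene end of Mvk (chr5:114443264-114444763) the level was 12.96, 12.3 and 7.75 CPM in C5 12_2, 12_4 and 16_2, and 5.95, 5.33 and 3.46 CPM in C5F1 12_7, 12_8 and 16_10. All C5 libraries lay above all C5F1 libraries, as they did within each label number. The log2 difference was 1.15 ± 0.13 (SE here and for all log2 differences; edgeR, adjusted p = 6.46e-12), with 21.6 CPM in PWD wild type mucosa and 0.184 CPM in B6 Apc Min mucosa. Mmab, which shares most of these windows, gave 1.12 ± 0.13 (edgeR, adjusted p = 1.503e-11). Mvk was also called in wild type mucosa (log2 1.10, edgeR, adjusted p = 7.43e-06) and in adenomas (0.90, edgeR, adjusted p = 8.03e-07), where 0.773% and 1.66% of the chromosome 5 gene ends were called. Within number 12 alone both were called (edgeR, adjusted p = 5.29e-10 and 6.66e-10), as they were with each library left out in turn and by DESeq2 (adjusted p = 2.58e-07 and 4.57e-07); without the block neither was (edgeR, adjusted p = 0.782 for each).

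The called windows at this promoter ran from 114443751 to 114444750 without a gap. The window with the Mvk start site (chr5:114444251-114444500) had 3.68, 3.21 and 1.49 CPM in the C5 libraries and 1.75, 1.31 and 0.586 CPM in the C5F1 libraries. C5 16_2 lay between the C5F1 libraries of number 12 there, and above C5F1 16_10. The log2 differences of the 4 windows were 1.09, 1.57, 1.20 and 1.15, and the next window downstream had 0.52 ± 0.29 (edgeR, adjusted p = 0.932). In PWD wild type mucosa the 4 windows held 2.97 to 5.99 CPM, and in B6 Apc Min mucosa between 0 and 0.0509 CPM.

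**Figure D3:**
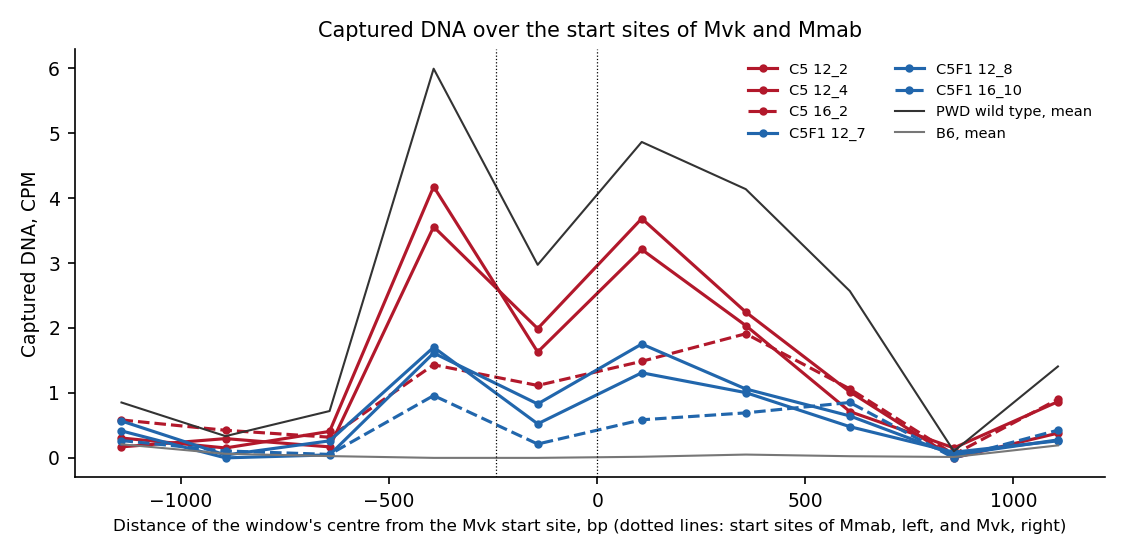
Captured DNA (CPM) in 250 bp windows around the start sites of Mvk and Mmab, against the distance of the window's centre from the Mvk start site in bp. Lines are single C5 (red) and C5F1 (blue) libraries, dashed for number 16, with the means of PWD and B6 in black and grey; C5 12_2 and 12_4 lie above all C5F1 libraries over both start sites, and B6 lies near 0.

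Other gene ends on chromosome 5 that passed were lower in C5. Of 8965 gene ends tested on all autosomes 13 were called (0.145%), and of 384 on chromosome 5, 5 (1.3%), 2 higher (0.521%, Mvk and Mmab) and 3 lower (0.781%). Thegl (chr5:77015023-77016522), a relative of the testis gene Theg, had 0.169, 0.204 and 0.159 CPM in the C5 libraries and 1.15, 0.874 and 0.746 CPM in the C5F1 libraries, with no overlap. It fell by 2.37 ± 0.41 on the log2 scale (edgeR, adjusted p = 6.72e-05), with 0.112 CPM in PWD wild type and 1.61 CPM in B6 Apc Min mucosa. Rnf212 (chr5:108774568-108776067), a ligase of meiotic recombination, had 2.29, 3.005 and 0.903 CPM in C5 and 3.23, 5.15 and 2.40 CPM in C5F1. The strains overlapped at Rnf212 and were apart within each label number, and the difference was -0.83 ± 0.18 (edgeR, adjusted p = 0.00609). PWD against B6 wild type mucosa was not called there (log2 -0.57, edgeR, adjusted p = 0.0556). Adam1a (chr5:121521196-121522695) had 0.212, 0.662 and 0.796 CPM in C5 and 1.38, 1.09 and 1.17 CPM in C5F1 (log2 -1.20 ± 0.30, edgeR, adjusted p = 0.0491). Leaving out C5 12_2 or C5F1 12_8 left 3 gene ends on chromosome 5, and without the block edgeR called 0 (25 at an unadjusted p under 0.05; DESeq2 with the block called 2, Mvk and Mmab). Thegl was called with each library left out, while Rnf212 was lost without C5 12_2 or C5F1 12_8, and Adam1a without any 1 of the 4 number 12 libraries.

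Called and uncalled gene ends together lay mostly on the side of the parental difference. The filter on low counts ran on the libraries compared, so a gene end could enter through the strain where it was higher. Of 31 tested chromosome 5 gene ends higher in PWD wild type than in B6 wild type mucosa, 28 were higher in C5 than in C5F1 (median log2 0.47), and of 27 lower in PWD, 25 were lower in C5 (median -0.42); 2 of each set were called. Of 303 with no difference called between the parents, 148 were higher and 155 lower in C5 (median -0.01). Over all gene ends tested the median log2 difference was 0.0084 on chromosome 5 and 0.012 on the other autosomes.

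The 8 chromosome 5 windows with the lowest p among those lower in C5 were windows that B6 captures more than PWD does. The strongest lay 53636 bp from Lhx5, a LIM homeobox gene of the developing brain (chr5:120378001-120378250), with 0.0847, 0.102 and 0.106 CPM in C5 and 0.784, 1.27 and 1.01 CPM in C5F1. The strains were far apart, and PWD wild type mucosa was at 0.0681 CPM and B6 Apc Min mucosa at 1.76 CPM. Its log2 difference was -3.33 ± 0.45 (edgeR, adjusted p = 3.55e-07), and the same test gave -2.87 in wild type mucosa (adjusted p = 0.000934) and -3.47 in adenomas (adjusted p = 4.08e-09). A window in Atg9b (chr5:24390501-24390750), an autophagy protein of membrane supply, had 0.254, 0.204 and 0.212 CPM in C5 and 1.34, 1.40 and 1.07 CPM in C5F1, with 0.141 CPM in PWD and 2.21 CPM in B6. It fell by 2.48 ± 0.34 (edgeR, adjusted p = 8.86e-07). A window over a Tlr6 start site (chr5:64960001-64960250), a receptor for bacterial lipopeptides, had 0.0847, 0 and 0.212 CPM in C5 and 0.922, 0.830 and 0.746 CPM in C5F1, and fell by 3.04 ± 0.51 (edgeR, adjusted p = 0.000236). No C5 library reached any C5F1 library at these 3 windows. The call near Lhx5 was lost without C5F1 12_8 (edgeR, adjusted p = 0.0786) and that at Tlr6 without C5F1 12_7 or 12_8.

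The other 5 in this direction lay in Igfbp7, a secreted binding protein of insulin-like growth factors (-2.74 ± 0.39), in Maea, a subunit of a ubiquitin ligase (-3.42 ± 0.50), 28287 bp from Ibsp, which encodes bone sialoprotein (-2.01 ± 0.32), in the DNA helicase gene Helq (-1.80 ± 0.29) and in the neurodevelopmental gene Auts2 (-3.29 ± 0.53), with edgeR adjusted p-values of 1.21e-06 to 0.000121. Their C5 levels were 0 to 0.611 CPM and their C5F1 levels 0.611 to 2.03 CPM. Within each of the 5 windows every C5 library lay below every C5F1 library, most closely at Helq, with 0.611 CPM in C5 12_4 and 0.853 CPM in C5F1 16_10. All 5 were lower in PWD wild type than in B6 wild type mucosa. The call in Helq was lost without C5 12_2 and that in Auts2 without C5F1 12_7.

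Windows higher in C5 rested more on the number 12 libraries. Besides the window at Mvk, the 7 named ones lay 14436 bp from Rbak (log2 1.495), 280085 bp from Adgrl3 (1.92), in Ttc28 (1.58), 208 bp from Trmt44 (1.03), 240754 bp from Cdk6 (1.20), 56237 bp from Kit (1.20) and 212774 bp from G6pd2 (1.41), with edgeR adjusted p-values of 0.00170 to 0.0365. Cdk6 is a cell cycle kinase and Kit a receptor for stem cell factor. The window near Kit (chr5:75518501-75518750) had 1.52, 1.48 and 1.49 CPM in C5 and 0.830, 0.437 and 0.693 CPM in C5F1, with 1.82 CPM in PWD wild type mucosa and 0.519 CPM in B6 Apc Min mucosa. The window near Cdk6 (chr5:3100001-3100250) had 2.71, 1.63 and 0.319 CPM in C5 and 0.692, 0.961 and 0.426 CPM in C5F1. The strains were apart near Kit, while near Cdk6 C5 16_2 was the lowest of all 6 libraries. Of the 18 windows called higher on chromosome 5, C5 16_2 lay above C5F1 16_10 in 17 and above all C5F1 libraries in 12. All 7 were lost when C5 12_2, C5F1 12_7 or C5F1 12_8 was left out, and the window at Mvk without C5 12_2 or C5F1 12_8. The windows near G6pd2 and Kit were lost without any 1 of the 6 libraries.

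**Figure D4:**
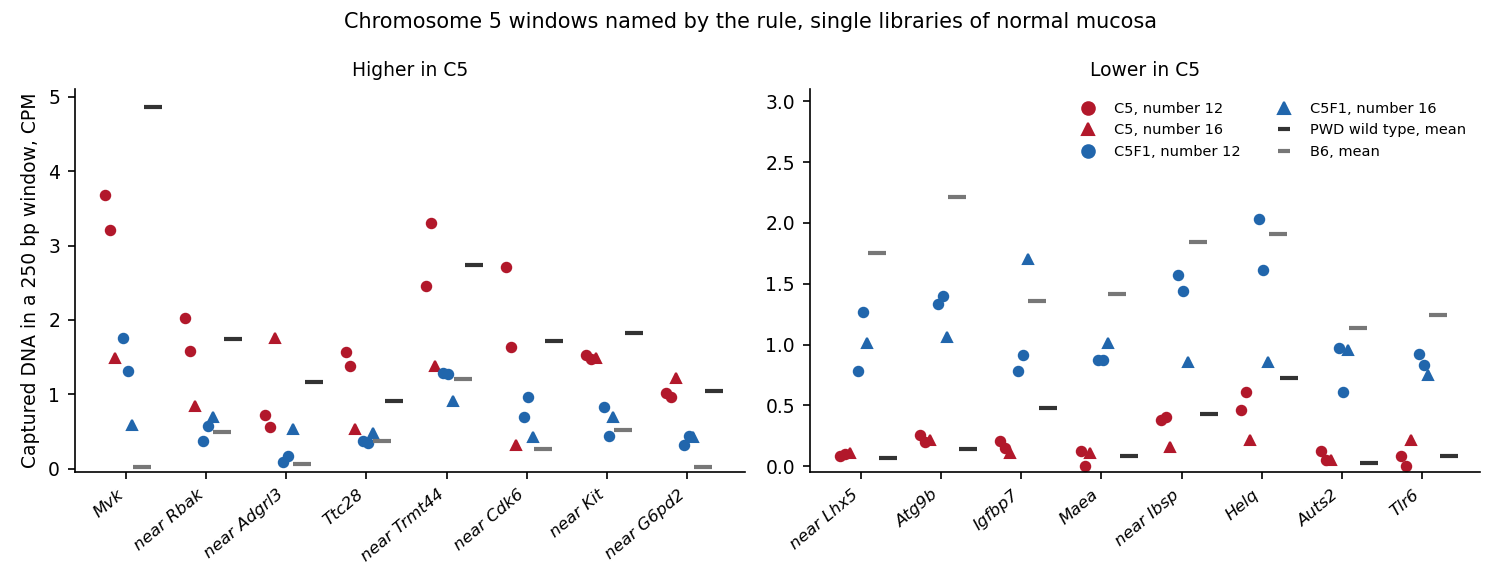
Captured DNA (CPM) in single libraries at the 16 named chromosome 5 windows, 8 higher in C5 (left) and 8 lower (right), in C5 (red) and C5F1 (blue), number 12 as circles and number 16 as triangles. Horizontal marks are the means of PWD wild type and B6 Apc Min mucosa; at the windows lower in C5 the C5 libraries lie near the PWD mark, and near Cdk6 the C5 library of number 16 lies below the C5F1 libraries.

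Off chromosome 5 the called windows had another form. At the 87 windows higher in C5, the summed level was 195, 161 and 61.4 CPM in C5 12_2, 12_4 and 16_2 and 53.1, 79.7 and 50.6 CPM in C5F1 12_7, 12_8 and 16_10. Both C5 libraries of number 12 lay above both C5F1 libraries of number 12 in all 87 windows, while C5 16_2 lay above C5F1 16_10 in 54 and above all C5F1 libraries in 23. The strains did not overlap in 23 of the 87, and on chromosome 5 in 12 of 18 and 58 of 60. Over all windows tested they did not overlap in 6.28% off chromosome 5 and 12.1% on it. The same libraries chose the called windows, so these counts are a description. Both strains lay off B6 Apc Min mucosa here, on opposite sides: the C5 mean was above that of B6 in 69 of the 87 and the C5F1 mean below it in 83, and the median levels were 1.43 CPM in C5, 0.578 CPM in C5F1 and 1.11 CPM in B6. A CpG score of 12 or more was held by 41 of the 87 (47.1%), against 4.26% of the windows tested. The chromosome 5 windows higher in C5 were also often dense, 6 of 18 (33.3%), against 4.77% of those tested there. Among the chromosome 5 windows lower in C5 it was 4 of 60 (6.67%). CpG-dense windows took 6.69% and 6.67% of the counts in the C5 libraries of number 12 against 5.77% and 6.26% in those of C5F1. The part of that share in these calls was not tested. With library sizes set within classes of the CpG score, 63 windows off chromosome 5 were higher and 6 lower. The count off chromosome 5 was 1 without C5 12_2, 12 without C5 12_4, 1 without C5F1 12_7 and 2 without C5F1 12_8, and 548 without C5 16_2 and 542 without C5F1 16_10.

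**Figure D5:**
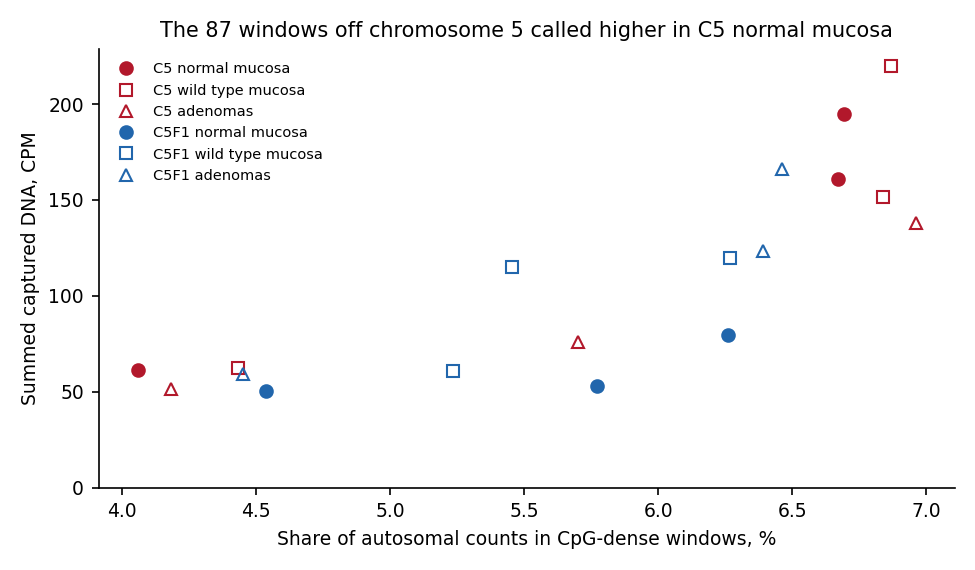
Summed captured DNA (CPM) over the 87 windows off chromosome 5 called higher in C5 normal mucosa, against the share of autosomal counts in CpG-dense windows (percent), for the 18 C5 (red) and C5F1 (blue) libraries. Filled circles are normal mucosa, which chose the windows, open squares wild type mucosa and open triangles adenomas; the 6 libraries of number 16, at the low end of the share, have sums of 50.6 to 62.6 CPM.

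The same windows in the other tissues of these strains gave a check in libraries that did not choose them. On chromosome 5, 66 of the 67 windows that could be tested in wild type mucosa and all 64 in adenomas had the same sign, and 20 (of a background of 0.259% called on chromosome 5) and 16 (background 0.213%) were called with that sign. These counts rest on the block and on single libraries: 20 became 0 without C5F1 12_10A, 9 without C5F1 12_12, 10 without C5F1 16_7 and 11 without C5 12_11, and 16 became 6 without C5F1 12_6, 2 without C5F1 12_9, 4 without C5F1 16_11, 3 without C5 12_3 and 5 without C5 16_3. Off chromosome 5, 79 of the 87 that could be tested had the same sign in wild type mucosa (median log2 0.52) and 10 of 86 in adenomas (median -0.40). Summed over the 87 windows higher in C5 normal mucosa, wild type mucosa had 152, 220 and 62.6 CPM in C5 and 120, 115 and 60.9 CPM in C5F1, and adenomas had 138, 75.9 and 51.3 CPM in C5 and 123, 166 and 59.3 CPM in C5F1. The strains overlapped in both. Over the 18 chromosome 5 windows higher in C5 they overlapped in adenomas alone: the sums were 22.6 to 35.6 CPM in C5 and 9.75 to 15.1 CPM in C5F1 normal mucosa, 20.1 to 35.1 CPM in C5 and 14.7 to 19.5 CPM in C5F1 wild type mucosa, and 19.7 to 32.7 CPM in C5 and 13.4 to 20.6 CPM in C5F1 adenomas. Of these 18, 1 was called in wild type mucosa and 1 in adenomas. Over the 60 chromosome 5 windows lower in C5 they did not overlap in any tissue: the sums were 22.03, 19.5 and 17.0 CPM in C5 and 68.9, 65.3 and 59.6 CPM in C5F1 normal mucosa, 19.2 to 23.1 CPM in C5 and 55.3 to 58.3 CPM in C5F1 wild type mucosa, and 17.5 to 23.4 CPM in C5 and 51.1 to 58.9 CPM in C5F1 adenomas. Adenomas and normal mucosa may come from the same mice, which the labels do not say.

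The difference between tissues was tested itself over all 18 libraries. The strain difference in adenomas minus that in normal mucosa passed in 16 of 669243 windows off chromosome 5 (0.00239%), all lower in adenomas, and in 0 of 37830 on chromosome 5 (edgeR; 1956 at an unadjusted p under 0.05). Without the block edgeR called 0 off chromosome 5 as well (15958 at an unadjusted p under 0.05). Wild type minus normal mucosa gave 0 in both regions (edgeR; 1619 and 29765 at an unadjusted p under 0.05); DESeq2 was not run on these differences.

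The named windows off chromosome 5 show the form of these calls. A window in Nckap5 (chr1:126093001-126093250) had 2.71, 2.55 and 0.478 CPM in C5 and 0.553, 0.917 and 0.586 CPM in C5F1 (log2 1.497 ± 0.25, edgeR, adjusted p = 0.000194), with 1.85 CPM in B6 Apc Min mucosa. A window in Ccdc102a (chr8:94913251-94913500) had 2.29, 1.43 and 0.531 CPM in C5 and 0.461, 0.611 and 0.267 CPM in C5F1 (log2 1.68 ± 0.29, edgeR, adjusted p = 0.000358). In both, C5 16_2 lay with C5F1 and the number 12 libraries of C5 stood above. The remaining 3 were 11908 bp from Bcl9, a coactivator of beta-catenin (1.49 ± 0.25), 221 bp from the start of Gm39505 (1.37 ± 0.24) and in the sodium channel gene Scn8a (1.27 ± 0.22). The 2 windows lower in C5 lay in Boll, a germ cell RNA-binding protein gene (-1.502 ± 0.32, edgeR, adjusted p = 0.0182), and in Ybey, a ribonuclease gene (-2.14 ± 0.49, edgeR, adjusted p = 0.0446). All 5 named higher windows were lost without C5 12_2, C5F1 12_7 or C5F1 12_8, and the 2 lower ones without any 1 of the 4 number 12 libraries.

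Gene ends off chromosome 5 passed in 8 of 8581 (0.0932%), 7 higher in C5 (0.0816%) and 1 lower (0.0117%). At 4 of the 7, PWD wild type mucosa had more signal than B6: 2310057M21Rik (log2 1.03), Nfs1, a cysteine desulfurase of iron-sulfur cluster assembly (1.06), the nuclear import receptor gene Kpnb1 (1.18) and Nr2c2ap (0.87). Among all 8581 gene ends tested off chromosome 5, 380 were higher in PWD. Kpnb1 was at 1.69 CPM in PWD wild type and 0.0986 CPM in B6 Apc Min mucosa, and Nr2c2ap at 2.59 and 0.660 CPM in the same groups. The gene end of 2310057M21Rik (chr7:131362344-131363843) had 3.64, 3.31 and 1.43 CPM in C5 and 1.25, 1.62 and 1.23 CPM in C5F1, with 2.92 CPM in PWD wild type and 0.264 CPM in B6 Apc Min mucosa (edgeR, adjusted p = 0.000938). That of Nfs1 (chr2:156143703-156145202) had 2.12, 2.34 and 1.17 CPM in C5 and 0.830, 1.22 and 0.586 CPM in C5F1, with 2.67 CPM in PWD and 0.1002 CPM in B6 (edgeR, adjusted p = 0.0128). C5 exceeded C5F1 within each label number at both genes, though C5 16_2 lay below C5F1 12_8. In wild type mucosa and in adenomas the differences were 0.58 and 0.48 for 2310057M21Rik and 1.19 and 0.60 for Nfs1, with edgeR adjusted p-values of 0.0521 or more. The gene ends of Cdx1, an intestinal homeobox gene (1.06), 4933428G20Rik (0.61) and Tmem229a (1.00) were at 1.08, 5.33 and 1.05 CPM in PWD wild type and 0.868, 5.42 and 1.37 CPM in B6 Apc Min mucosa. Fam32a (chr8:72218745-72220244) fell by 1.51 ± 0.28 (edgeR, adjusted p = 0.000500), with 0.889, 0.255 and 0.372 CPM in C5 and 1.43, 1.75 and 1.28 CPM in C5F1. All 7 higher gene ends were lost without C5 12_2 or C5F1 12_8, and Fam32a without C5 12_4 or C5F1 12_8. The count was 1 without C5 12_2, 3 without C5 12_4, 2 without C5F1 12_7, 0 without C5F1 12_8, 24 without C5 16_2 and 26 without C5F1 16_10. Without the block edgeR called 0 (121 at an unadjusted p under 0.05), and DESeq2 with the block called 0 (37).

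Gene lists held few testable gene ends and few calls. Of 146 genes in 16 lists, 56 passed the filter on low counts and 2 were called, Mvk and Mmab, in a list of 11 sterol and fatty acid genes of chromosome 5 of which 4 were tested (median log2 0.70, against 0.0084 over all gene ends of chromosome 5). The other chromosome 5 lists had 0 called: CXC chemokines (6 of 11 tested, median -0.14), homeobox and T-box factors (2 of 19, 0.09), drug metabolism and transport (2 of 24, -0.13), Wnt and stem cell genes (2 of 9, -0.08), DNA repair (1 of 8, Ung at -0.22), EGF family ligands (1 of 4, Ereg at -0.26) and receptor tyrosine kinases (1 of 8, Kdr at 0.55). Cxcl2 and Cxcl3, neutrophil chemokines, were at -0.44 ± 0.41 and -0.20 ± 0.26, Tbx3 at -0.20 ± 0.36, the glucose transporter gene Slc5a1 at -0.09 ± 0.24, Prom1 at -0.11 ± 0.21 and Shh at -0.05 ± 0.32, all with an edgeR adjusted p of 0.974 or more.

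Neither Apc nor any gene of the methylation machinery passed the test. Apc, on chromosome 18, had 1.78, 1.68 and 1.81 CPM in C5 and 1.61, 1.97 and 1.76 CPM in C5F1 (log2 -0.04 ± 0.21, edgeR, adjusted p = 0.985). The Min allele is a point mutation that these counts do not show. Of 13 genes of DNA methylation, demethylation and its readers, 7 were tested and 0 called (median -0.03). Tet2, a 5-methylcytosine dioxygenase, was at 0.73 ± 0.40 and Dnmt3b, a de novo methyltransferase, at -0.49 ± 0.32. Ugt2b36 and Abcb1a, a glucuronosyltransferase and a drug efflux pump of chromosome 5, were at -0.22 ± 0.34 and -0.03 ± 0.40.

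Captured DNA at marker genes of the cell types of mucosa was compared between the strains. Capture at a gene end is not expression and does not measure the mix of cells. The labelled tissue could not be checked with it. Of 39 marker genes in 7 lists, 30 were tested and 0 called. None of the 39 was at 0 in all 6 libraries. Summed levels overlapped between the strains in every list: enterocyte markers had 5.47 to 6.40 CPM in C5 and 4.26 to 6.99 CPM in C5F1, goblet and Paneth cell markers 4.78 to 5.40 and 4.64 to 5.86, and B cell markers 7.33 to 9.93 and 6.08 to 9.32. T cell markers had 7.01 to 8.01 CPM in C5 and 6.98 to 7.34 CPM in C5F1, myeloid markers 7.86 to 10.5 and 7.94 to 9.08, smooth muscle and stroma markers 3.29 to 6.52 and 5.44 to 7.34, and endothelial markers 3.61 to 3.85 and 2.93 to 4.61. An unadjusted p under 0.05 was found at 2 of them, the B cell receptor gene Cd79a (log2 0.43 ± 0.15, edgeR, adjusted p = 0.627) and the smooth muscle actin gene Acta2 (-0.68 ± 0.26, edgeR, adjusted p = 0.719). The other markers named, Cd79b, Tagln, Agr2, Lyz1, Cd4, Cd8a, Adgre1, Cd68, Apoa1, Pecam1 and Cdh5, lay between -0.45 and 0.39.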

How the data were processed

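Genomic DNA of intestinal mucosa was captured with an antibody against 5-methylcytosine, and the instrument was an Illumina Genome Analyser IIx according to the protocols. The submitters' processing notes name BWA and the build mm10, with no version; read filters were not given in the sources used here. The authors deposited 1 table of raw counts per 250 bp window for 47 libraries, 46 of them MeDIP, in which no window exceeds 500 counts, and a CpG density score per window that was used to class windows. Annotation and promoters came from RefSeq, GRCm38.p6.

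Counts of autosomes were analysed in R 4.3.3 with edgeR 4.0.16 (quasi-likelihood test, minimum count 10, TMM scaling, label number as block, Benjamini-Hochberg adjustment over all autosomal windows or gene ends tested, threshold 0.05). Sex chromosomes were not analysed, since no label states the sex of a mouse. Differences are C5 minus C5F1. CPM uses the scaled library sizes of a fit of all 46 MeDIP libraries. Gene ends reach from 1000 bp outside to 500 bp inside 20665 protein-coding genes, at the 5′ end where strand was known (16457) and otherwise at the CpG-rich end (4208, all of chromosome 18 among them). Parental windows were those of PWD against B6 wild type mucosa with an edgeR adjusted p under 0.05 and at least a 2-fold difference. Single values were compared with exact permutation tests. DESeq2 1.42.0 served as an alternative. The edgeR test of the 6 libraries with the block was also run on simulated counts of windows and gene ends. The permutation tests, DESeq2 and the fits over 18 libraries were not.

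Named windows were the 8 per direction with the lowest p on chromosome 5 and the 5 per direction on other autosomes, leaving out those within 10000 bp of one taken; gene ends were likewise the 10 and 5 lowest, with 2 per gene list and Mvk, Mmab and Apc. The gene ends of 4933428G20Rik and Tmem229a fall outside that rule and were chosen after their values were seen, as were the detail on the windows next to Mvk, the permutation tests over 18 libraries and the CpG classes without a library. The members and lists were chosen with earlier results of these data known.

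C5 12_2 and 12_4 differed little beyond counting noise off chromosome 5 (chi-square per degree of freedom 1.42 over 1 Mb bins, where 1 is noise) but were kept as 2 samples. Some pairs across the strains were about as close. C5F1 12_8 was at 1.56 with C5 12_4 and 1.92 with C5 12_2, and C5F1 16_10 was at 2.88 with C5 16_2. Number 12 pairs with C5F1 12_7 were at 6.96 to 8.40, and pairs of different numbers at 55.5 to 124. The labels name no animals, so p-values measure the spread between samples, which may be technical. Deviations from the group means correlated at 0.0911 to 0.488 between libraries of the same label number and at -0.449 to -0.14 between others. Deviations from a mean of 3 libraries cancel out within each strain, so part of this pattern is built in. These values cannot show whether the number pairs single samples. A median of 14 counts per window limits single windows to large differences. The values of 1 gene of the lists are not reported here.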

Additional observations from a re-analysis of the deposited data

Results flagged for a closer look

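The strain difference (C5 minus C5F1) in adenomas minus that in normal mucosa passed edgeR's interaction test over 18 libraries in 16 windows, none of them on chromosome 5, and in 0 without the block. At a window 221 bp from the start of Gm39505 (chr11:113219501-113219750) the difference of differences was -2.02 ± 0.37 (SE; edgeR, adjusted p = 0.0161), from -0.69 in adenomas and 1.37 in normal mucosa. At a window in the sodium channel gene Scn8a (chr15:100917501-100917750) it was -1.85 ± 0.35 (edgeR, adjusted p = 0.0389), from -0.60 in adenomas and 1.27 in normal mucosa. Both windows had been named for their difference in normal mucosa, which enters this test.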

How the results depend on the processing

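The difference in PWD scale on chromosome 5 kept its direction under the alternatives run: it was 31.2 points over windows higher in PWD alone, 42.7 over windows lower in PWD alone, and 35.5 to 38.3 with 1 library left out; off chromosome 5 it was -0.609 to 0.460. The share of counts on chromosome 5, lower in C5, turned to 0.0636 points higher in C5 over windows that passed the filter, and differed by -0.152 to -0.00822 with 1 library left out; the CpG-dense share differed by -0.209 to 1.16.

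Counts of called windows moved far more, given here for chromosome 5 and then the other autosomes, with the cause not tested. Without the block they were 0 and 0, with all 18 libraries 48 and 21, with all 46 and no block 45 and 1, within number 12 alone 2 and 5, at a minimum count of 5 154 and 123, at 20 15 and 9, and by DESeq2 0 and 0. With 1 library left out they were 7 to 108 and 1 to 548. DESeq2's size factors in edgeR gave 78 and 90. For gene ends the counts were 0 and 0 without the block, 4 and 3 with 18 libraries, 3 and 0 with 46, 4 and 3 within CpG classes, 3 and 7 within number 12, 5 and 3 without a filter, 2 and 0 by DESeq2, 3 and 1 within 2000 bp, 0 and 0 at the other gene end, and 3 to 6 and 0 to 26 with 1 library left out. Chromosome 5 windows called in wild type mucosa (20) were 0 without the block and 0 to 16 with 1 library left out; those in adenomas (16) were 0, 26 at a minimum count of 5, and 2 to 11. The 16 windows that differed between tissues became 0 without the block.

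No named window reversed, but 103 of 246 values for those on chromosome 5 and 54 of 106 for the others missed the threshold. At the other end of the gene the difference reversed for Thegl (0.0353), Adam1a (0.149), Nr2c2ap (-0.0466) and 4933428G20Rik (-0.29).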
